A study of Mus musculus with 2 samples.

Results

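Fibroblast growth factor (FGF) signalling to the kinase ERK was described in cultured mouse embryonic stem cells (mESC), which are pluripotent, through 9 genes, found by symbol among the 55415 features of the deposited tables. They are the ligand Fgf4, the receptors Fgfr1 and Fgfr2, the inhibitors Spry2, Spry4, Spred1 and Dusp6, and the transcription factors Etv4 and Etv5, and each symbol matched 1 feature. The cells carried GFP driven by MERVL, a retroviral element of the mouse genome transcribed in a state that resembles the 2-cell embryo (2C-like), and an H2B-mIFP label for following cells. The 2 single-cell libraries carry the labels MERVL GFP negative (1) and MERVL GFP positive (1); strain, culture medium and the number of clones are not given in the sources used here, nor is the way the cells were separated. The purpose stated for the series was to trace what becomes of 2C-like cells.

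In this pathway an FGF binds a receptor tyrosine kinase, and RAS and a chain of kinases pass the signal to ERK, which changes transcription in the nucleus. ERK activity induces its own brakes, among them the Sprouty and Spred proteins and the phosphatase Dusp6, together with the ETS-family factors Etv4 and Etv5, so these genes are widely used as transcriptional readouts of the pathway. In the early embryo and in mESC, Fgf4 is made by Nanog-expressing epiblast-type cells, and signalling through Fgfr1 and Fgfr2 favours primitive endoderm, the lineage marked by Gata6. Zscan4 genes mark 2C-like cells.

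Each group has 1 library. Cells of a library share their source and are not replicates, so no test was run and no p-value is given; the label field called batch holds the group itself, so library and condition cannot be told apart. Intervals are exact, at 95%, and cover counting error only. The positive library kept 4596 of 4603 cells and the negative library all 3832, with medians of 29554.5 and 39099.5 UMIs (unique molecular identifiers, counts of captured molecules) per cell, and 3 barcodes occurred in both. Levels are CPM, the usual depth-scaled unit for counts, scaled to all UMIs of the library or class, and differences are ratios of CPM. A gene was past the size rule when its ratio of CPM + 1 was at least 2 in either direction, with at least 10 CPM in a group and at least 50 UMIs in all. In the main class contrasts where Fgfr2 met the 10 CPM minimum, it did so through the higher class alone and was past the rule. Its place in those member counts and its call therefore rest on the same values. GFP stood at 205 CPM in the positive library and 0.454 CPM in the negative, and Zscan4a to Zscan4f, near-identical copies that were therefore summed, at 322 and 0.627 CPM. The 7 listed mESC markers were detected in both libraries, at a summed 2242 CPM in the positive library and 3132 CPM in the negative.

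To set the members against cell state, each cell was thinned at random to 10000 UMIs and assigned to a class by its thinned Nanog, Gata6 or Zscan4 UMIs, and 194 cells of the positive and 8 of the negative library were too shallow for this. The classes are ranges of a count and not cell types: in the positive library 272 cells lay 1 UMI below the limit of 6 Nanog UMIs and 240 lay on it, 86 and 58 cells lay below and on the limit of 3 Gata6 UMIs, and 54 and 45 cells below and on the limit of 10 Zscan4 UMIs. The negative library had 164 and 94 cells below and on the Nanog limit, and only 18 and 26 of its cells lay below and on the Gata6 limit, where 203 cells lay at or above it. In the negative library only 7 cells held any thinned Zscan4 UMI, so Zscan4 classes were described in the positive library alone.

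The promoters of Fgf4, Fgfr2 and Spry2 are shown because these are the ligand, the receptor and the inhibitor whose levels differed most with Gata6. Each runs from 250 bases before to 50 bases after the RefSeq transcript start on GRCm38.p6, 5′ to 3′ on the strand of the gene; RefSeq start windows were at hand for 6 of the 9 members. Capitals mark matches, on either strand, to 6 short motifs searched as letters. For factors of the Gata6 family the letters were GATAA. For ETS factors the longer motif was CCGGAA, and the shorter core, which can overlap it, was GGAAG. For factors of the Sox family the letters were ACAAAG, for the core promoter element upstream of the start they were TATATA, and for Sp1 they were GGGCGG. The Fgf4 window lies at chr7:144861136-144861435 on the plus strand, inside the GENCODE M21 gene at chr7:144847367-144865243. The Fgfr2 window lies at chr7:130266759-130267058 on the minus strand, inside the gene at chr7:130162451-133123350. The Spry2 window, at chr14:105896770-105897069 on the minus strand, covers the start of the gene at chr14:105891947-105896819.
Fgf4: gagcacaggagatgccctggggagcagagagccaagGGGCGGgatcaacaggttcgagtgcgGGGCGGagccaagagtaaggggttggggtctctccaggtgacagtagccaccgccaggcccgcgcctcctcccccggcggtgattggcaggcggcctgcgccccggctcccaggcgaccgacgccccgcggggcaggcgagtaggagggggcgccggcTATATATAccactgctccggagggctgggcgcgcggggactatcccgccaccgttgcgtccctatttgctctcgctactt
Fgfr2: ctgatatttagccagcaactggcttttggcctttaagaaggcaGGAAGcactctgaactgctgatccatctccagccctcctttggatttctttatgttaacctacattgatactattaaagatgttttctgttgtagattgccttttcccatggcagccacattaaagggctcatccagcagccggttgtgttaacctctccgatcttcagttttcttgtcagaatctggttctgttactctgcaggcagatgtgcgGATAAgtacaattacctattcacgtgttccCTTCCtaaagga
Spry2: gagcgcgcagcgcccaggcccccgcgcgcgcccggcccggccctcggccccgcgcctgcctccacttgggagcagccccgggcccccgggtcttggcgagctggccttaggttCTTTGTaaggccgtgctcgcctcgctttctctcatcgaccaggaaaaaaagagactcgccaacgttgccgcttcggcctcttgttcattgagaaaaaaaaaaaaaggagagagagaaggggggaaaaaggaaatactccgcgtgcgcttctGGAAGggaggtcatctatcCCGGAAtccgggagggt

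The Fgf4 window held 2 overlapping TATATA matches, 30 and 28 bases before the start, and 2 GGGCGG matches, 214 and 188 bases before it. TATATA occurred in 5.67% of the 32851 mouse promoters of the table, all of the same length, and GGGCGG in 35.7%. The Fgfr2 window held GATAA at base 9 after the start, a motif found in 25.4% of promoters, with GGAAG, found in 71.4%, 207 bases before the start and at base 39 after it. The Spry2 window held CCGGAA at base 34 and GGAAG at base 15 after the start, and ACAAAG on the opposite strand 137 bases before it; CCGGAA occurred in 14.9% and ACAAAG in 18.7% of promoters. By base composition Fgfr2 stood apart at 43.7% G and C, against 69.7% for Fgf4, 62.7% for Spry2 and a median of 52.7% over all promoters. A match is a string of letters and was not set against any measured binding.

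The first comparison asks how the pathway genes differ with the reporter label. The ligand Fgf4, the receptor Fgfr2 and the inhibitor Spry2 were higher in the positive library, whereas the transcription factor Etv4 and the inhibitors Spry4, Spred1 and Dusp6 were lower there. Fgfr1 and Etv5 differed by little. None of these differences reached 2-fold, so the members differed in direction rather than as a block.

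Fgf4 stood at 115 CPM (interval 113 to 116) against 83.6 CPM (82.2 to 85.0), positive library first, a ratio of 1.37 (1.34 to 1.40). The main receptor of mESC, Fgfr1, stood at 26.3 and 23.4 CPM, a ratio of 1.12 (1.07 to 1.18). Fgfr2 stood at 6.93 and 4.73 CPM, a ratio of 1.46 (1.33 to 1.61), and it alone lay below the 10 CPM minimum of the size rule. Ligand and Fgfr2 were thus higher in the positive library by similar ratios, and Fgfr1 by less.

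Among the inhibitors, Spry2, a Sprouty protein that blocks signalling from receptor to RAS, stood at 126 CPM (124 to 128) against 93.1 CPM (91.6 to 94.6), a ratio of 1.36 (1.33 to 1.39). Its relative Spry4 went the other way, at 35.5 CPM (34.6 to 36.5) against 53.2 CPM (52.1 to 54.4), a ratio of 0.668 (0.645 to 0.692). Spred1, a Sprouty-related inhibitor of RAF activation, stood at 16.7 against 25.9 CPM, a ratio of 0.644 (0.612 to 0.678). Dusp6, the cytoplasmic phosphatase that removes ERK phosphorylation, stood at 16.7 against 20.8 CPM, a ratio of 0.805 (0.763 to 0.849). Within the inhibitors the libraries therefore ranked in opposite order for the paralogs Spry2 and Spry4.

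Of the paired ETS factors, Etv4 showed the largest difference of any member, at 22.3 CPM (21.5 to 23.1) against 41.1 CPM (40.1 to 42.1), a ratio of 0.543 (0.520 to 0.567). Etv5 stood at 56.0 and 57.9 CPM, a ratio of 0.967 (0.938 to 0.997). Of the 8 members with enough counts 0 were past the size rule, where 7.01% of 8042 genes tested were past it as higher in the positive library and 0.995% as lower. The median log2 ratio was -0.17 over these 8 members and 0.14 over all genes tested.

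**Figure D1:**
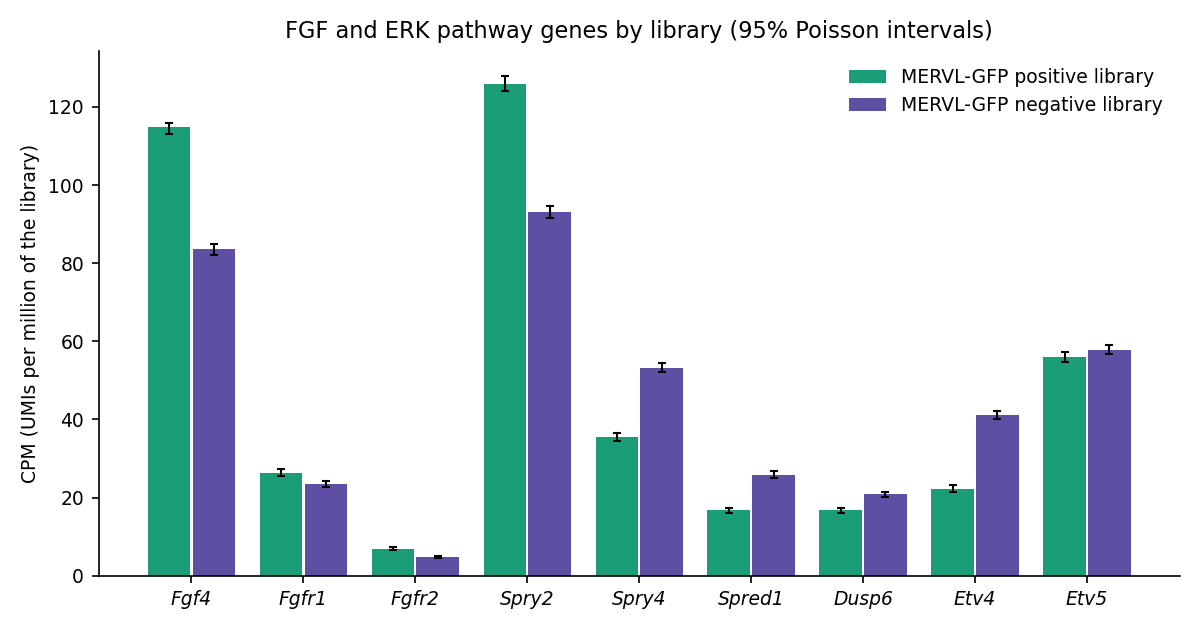
Level of the 9 members in the MERVL-GFP positive (green) and negative (purple) libraries, in CPM on a linear axis from 0; bars are UMI sums over all kept cells of 1 library and whiskers are exact 95% Poisson intervals. Spry2 and Fgf4 were higher in the positive library (126 against 93.1 and 115 against 83.6 CPM), and Etv4 and Spry4 were lower there (22.3 against 41.1 and 35.5 against 53.2 CPM).

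The scale matters for these modest ratios. Scaling by TMM, or by the median of ratios, moved the median log2 ratio of all genes from 0.14 to -0.16, a shift of -0.30, and moved the share of called genes that were higher in the positive library from 87.6% to 59.2% and 59.6%. Under both of them Fgfr1 turned from a log2 ratio of 0.16 to -0.12 and Etv4 passed the size rule at -1.14. Relative to the median of all genes under CPM, Fgf4 lay 0.31 and Spry2 0.29 above, and Spry4 lay at -0.71, Spred1 at -0.75 and Etv4 at -0.99; such differences are nearly the same under any scaling by construction, since 1 factor applies to all genes. Other cell states moved with the library: the 12 primitive endoderm markers summed to 872 CPM in the positive and 356 CPM in the negative library, the 14 measured 2C-like markers to 558 and 1.04 CPM, the 9 trophoblast markers to 98.0 and 59.8 CPM and the 8 fibroblast (feeder) markers to 228 and 214 CPM, with Col3a1 and Postn at 0 in the negative library. The part of these markers in the library ratios was not tested beyond the class values that follow. Cells of the positive library had a median of 2.56% mitochondrial UMIs, against 1.60% in the negative.

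The directions were therefore also read within classes of cells; the classes by Nanog or by Gata6 alone were chosen after seeing the data. Etv4 was lower in the positive library in each of the 4 Nanog classes, with ratios of 0.425, 0.550, 0.655 and 0.620 from the class without Nanog UMIs to the class of 6 or more. Its ratio was 0.664 (0.628 to 0.702) among cells with neither Gata6 nor Zscan4 UMIs, where Spry4 stood at 0.809 (0.772 to 0.847), Spred1 at 0.749 (0.700 to 0.801) and Dusp6 at 0.968 (0.904 to 1.04). In the same cells the ratio was 1.62 (1.57 to 1.67) for Fgf4, 1.55 (1.51 to 1.60) for Spry2, 2.33 (1.97 to 2.76) for Fgfr2, 1.33 (1.26 to 1.41) for Fgfr1 and 1.12 (1.08 to 1.17) for Etv5. They held 0 Gata6 and Zscan4 UMIs only after thinning, whereas the sums use all UMIs. Their 2C-like markers summed to 100 CPM in the positive and 0.450 CPM in the negative library, and their primitive endoderm markers to 364 and 133 CPM. The part of these markers in the ratios was not tested. Spry2 was not higher in the positive library in cells with Gata6 UMIs, with ratios of 0.942 (0.857 to 1.04) at 1 to 2 and 0.902 (0.849 to 0.959) at 3 or more. By Nanog class Fgf4 did not keep its direction: its ratio was 0.571 (0.528 to 0.617) in cells without Nanog UMIs, 0.994 (0.950 to 1.04) at 1 to 2, 1.30 (1.24 to 1.35) at 3 to 5 and 1.24 (1.17 to 1.31) at 6 or more. Nanog itself stood at 410 CPM in the positive and 192 CPM in the negative library, and it differed within these classes too, at 41.8 and 73.1 CPM in the lowest and 873 and 560 CPM in the highest.

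The share of cells with a UMI gave a different picture from the sum for the ligand. At 10000 UMIs per cell, Fgf4 was detected in 47.5% (46.0 to 48.9) of cells in the positive and 48.3% (46.7 to 49.9) in the negative library, although its mean was 1.11 against 0.855 UMIs. In the positive library more cells held much of it: 232 of 4402 cells (5.27%) had 5 or more thinned Fgf4 UMIs, against 63 of 3824 (1.65%). The variance over the mean, which is 1 for pure counting noise, was 2.84 and 1.66. Fgf4 was thus spread less evenly among positive-library cells.

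Spry4 showed the same unevenness at a lower mean. It was detected in 18.2% (17.1 to 19.4) of cells in the positive and 34.5% (33.0 to 36.1) in the negative library, yet cells with a UMI held a mean of 1.79 and 1.61, and the variance over the mean was 2.63 and 1.80. In the positive library the top 5% of cells held 54.3% of its thinned UMIs, against 33.7% in the negative. The share held by the top cells also depends on the mean, which was 0.325 and 0.556 UMIs: that of Spred1, near counting noise, was 41.1% and 33.7%. Spry2 had a variance over the mean of 2.25 and 1.73, and Dusp6 1.78 and 1.17, with a highest Dusp6 cell of 13 against 4 UMIs. Spred1 and Fgfr1 stayed near counting noise, at 1.07 and 1.16 in the positive and 1.06 and 1.04 in the negative library.

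The remaining detected shares, positive library first, were 55.5% and 52.7% for Spry2, 38.2% and 43.8% for Etv5, 21.6% and 21% for Fgfr1, 18.3% and 33.2% for Etv4, 14.5% and 22.0% for Spred1, 12.5% and 18.9% for Dusp6 and 5.79% and 4.24% for Fgfr2. Without thinning the shares were higher and followed depth, for example 67.2% and 81.4% for Fgf4 and 39.4% and 73.8% for Etv4. GFP was found in 0.628% of the thinned cells of the negative library, and the part of free RNA in these shares was not tested. At least 1 of the 9 members was detected in 91.8% of cells in the positive and 96.8% in the negative library. The most common number of members per cell was 2 in the positive library (1241 cells, 28.2%) and 3 in the negative (1010 cells, 26.4%).

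The second comparison follows the members with Nanog, the pluripotency factor of the epiblast. Fgf4 was higher the more Nanog a cell held, in both libraries, and Fgfr2 was highest in cells without Nanog. Etv5 was also higher at high Nanog in the positive library, and by less in the negative, while Spry4 was lower. Spry2 was lower too, except among positive-library cells with 0 Gata6 UMIs. Fgfr1, Spred1 and Etv4 had ratios above 1 in the positive library (1.47, 1.5 and 1.22) and below 1 in the negative (0.906, 0.686 and 0.838), where the interval for Fgfr1, 0.771 to 1.06, includes 1. Among positive-library cells with 0 Gata6 and Zscan4 UMIs these ratios were 0.916, 1.04 and 0.922, each with an interval that includes 1.

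In the positive library Fgf4 stood at 31.4 CPM (29.4 to 33.5) in the 991 cells without Nanog UMIs, 82.8 in the 1127 cells with 1 to 2, 133 in the 1045 with 3 to 5 and 185 CPM (181 to 189) in the 1239 with 6 or more. The negative library gave 55.0 (52.8 to 57.2), 83.3, 103 and 150 CPM (142 to 158) over 1113, 1595, 883 and 233 cells. The intervals of neighbouring classes did not overlap in either library, but they leave out the spread among cells. From the lowest to the highest class the ratio was 5.89 (5.49 to 6.32) and 2.72 (2.55 to 2.91), and the detected share went from 20.1% to 69.0% and from 35.8% to 67.4%. Per cell, Nanog was the gene whose thinned level was most like that of Fgf4 in both libraries, with Pearson r of 0.39 over 4402 cells and 0.21 over 3824 cells among 7796 and 7076 genes with at least 10 CPM; these cells share a library, and r is a description. The next were Jam2 in both (0.38 and 0.19), then Zfp42 (0.36) in the positive and Klf2 (0.19) in the negative library.

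Fgfr2 stood at 12.6 CPM (11.3 to 14.0) without Nanog and 4.78 CPM (4.12 to 5.50) in the highest class of the positive library, a ratio of 0.379 (0.316 to 0.453). The negative library gave 10.4 CPM (9.50 to 11.4) and 2.72 CPM (1.76 to 4.02), a ratio of 0.261 (0.167 to 0.391) that rests on 25 UMIs in the highest class. Cells without Nanog include those rich in Gata6. Among cells with 0 Gata6 UMIs, chosen after seeing the data, Fgfr2 was no longer past the size rule in either library: it stood at 4.66 against 6.07 CPM in the positive (0.768, 0.6 to 0.987), and in the negative its direction turned, at 2.7 against 2.07 CPM (1.31, 0.787 to 2.09). Fgf4 stayed past the size rule there, at 185 against 45.9 CPM (4.03) and 149 against 64.9 CPM (2.29). With Zscan4 at 0 UMIs as well, its ratio in the positive library was smaller, at 189 against 66.6 CPM (2.85, 2.58 to 3.15), and that in the negative library was 2.29 (2.14 to 2.45).

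Spry4 was lower at high Nanog in both libraries, at 26.6 against 38.2 CPM in the positive (0.696, 0.638 to 0.758) and 30.4 against 63.0 CPM in the negative (0.482, 0.425 to 0.546). Spry2 stood at 118 against 143 CPM (0.826) and 70.5 against 117 CPM (0.601). Etv5 stood at 68.6 against 35.4 CPM in the positive library (1.94, 1.80 to 2.08) and 63.8 against 53.0 CPM in the negative (1.2, 1.10 to 1.32). Among cells with 0 Gata6 UMIs its ratio was 1.62 (1.49 to 1.76) in the positive library and 1.10 (0.997 to 1.2), an interval that includes 1, in the negative. Dusp6 was slightly lower in both, with ratios of 0.855 and 0.763. Spry4 in the positive library was highest not in the lowest class but at 1 to 2 Nanog UMIs, at 43.9 CPM. Among cells with 0 Gata6 UMIs Spry2 was not lower at high Nanog in the positive library, at 119 against 115 CPM (1.04, 0.984 to 1.09), although with Zscan4 at 0 UMIs as well it was (0.899, 0.830 to 0.973), while its ratio in the negative library was 0.768 (0.703 to 0.839).

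In the positive library 2 of 9 members were past the size rule, Fgf4 as higher and Fgfr2 as lower; among 8160 genes tested 1.45% were past it as higher and 4.87% as lower. In the negative library 3 of 9 were past it, Fgf4 as higher and Fgfr2 and Spry4 as lower; of 7377 genes 0.149% were higher and 0.854% lower there. Over the 9 members the median log2 ratio was 0.28 and -0.37, against 0.00 and 0.02 over all genes tested. Endoderm content moved with the Nanog class: the 12 primitive endoderm markers summed to 2332 CPM without Nanog and 292 CPM in the highest class of the positive library, and to 812 and 149 CPM in the negative. Feeder markers stood at 301 and 193 CPM and at 239 and 171 CPM, with Dcn at 0 in all 4 of these classes. Trophoblast markers of the positive library stood at 215 without Nanog and 45.8 CPM in the highest class, primed markers at 185 and 49.1, 2C-like markers at 722 and 343 and mESC markers at 1165 and 2888 CPM. The negative library gave 60.8 and 70.2, 137 and 60.9, 0.625 and 4.58, and 2666 and 3660 CPM in the same order. Apart from the values at 0 Gata6 UMIs, their part in the result was not tested.

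**Figure D2:**
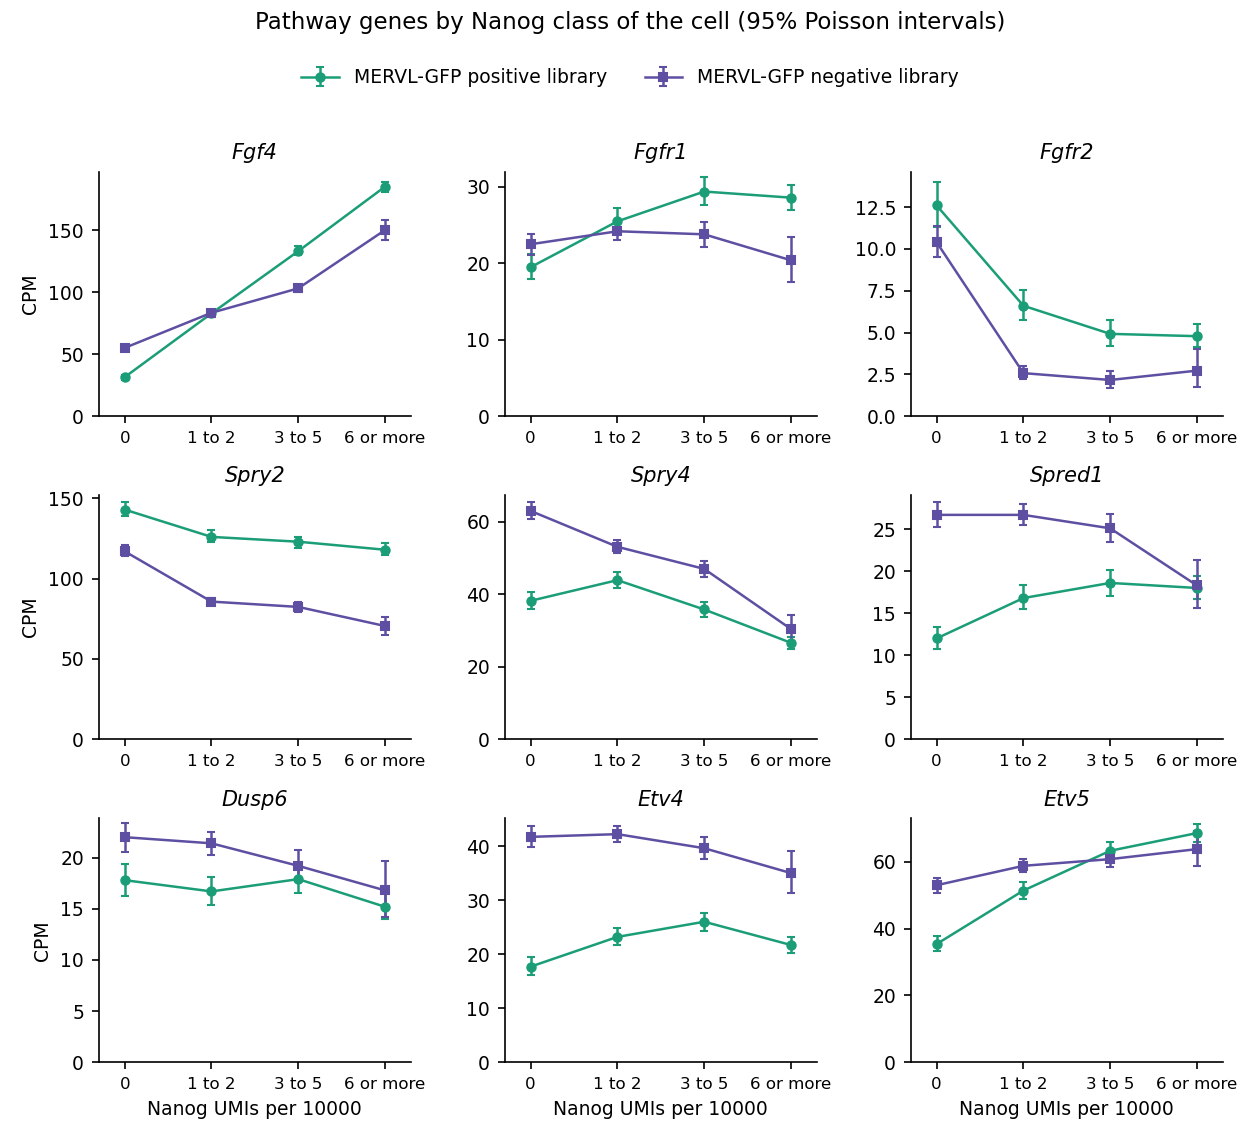
Level of each member by the Nanog UMIs of the cell after thinning to 10000 UMIs, in the positive (green circles) and negative (purple squares) libraries; vertical axes are CPM, linear from 0, with exact 95% Poisson intervals. Fgf4 is higher in each class than in the one before, from 31.4 to 185 and from 55.0 to 150 CPM, and Fgfr2 is highest in the first class.

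The third comparison follows the members with Gata6, the primitive endoderm factor. In cells with 3 or more Gata6 UMIs the ligand Fgf4 was nearly gone and the receptor Fgfr2 and the inhibitor Spry2 were at their highest, in both libraries. Etv5, Fgfr1 and Spred1 were lower in those cells, Etv5 and Fgfr1 past the size rule in the positive library alone. Spry4, Dusp6 and Etv4 had ratios between 0.732 and 1.25 over all cells. The ligand and Fgfr2 were thus highest in different classes of cells.

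Fgf4 stood at 127 CPM (125 to 129) in the 3735 positive-library cells without Gata6 UMIs, 80.7 CPM (75.5 to 86.3) in the 366 cells with 1 to 2, and 10.3 CPM (8.39 to 12.5) in the 301 cells with 3 or more. In the negative library it stood at 88.1 (86.6 to 89.7), 77.8 (70.7 to 85.3) and 10.3 CPM (8.25 to 12.7) over 3481, 140 and 203 cells. The ratio of highest to lowest class was 0.0811 (0.0661 to 0.0986) and 0.117 (0.0935 to 0.145). Detected shares were 51.8% against 4.98% in the positive library and 50.9% against 6.40% in the negative, at 10000 UMIs per cell, with unthinned medians of 30226 against 32307 and 39190 against 39314 UMIs. Little was left in Gata6-rich cells, 102 and 86 UMIs in all. Among Gata6-rich cells of 20000 to 50000 UMIs, 63 and 22 of these UMIs remained, at 7.53 and 3.78 CPM, and the ratios were 0.0585 (0.0450 to 0.0749) and 0.0421 (0.0264 to 0.0638). The part of free RNA or of doublets in these remaining UMIs was not tested.

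Fgfr2 ran the other way. It stood at 5.10 (4.70 to 5.53), 8.08 (6.48 to 9.96) and 26.4 CPM (23.3 to 29.8) across the Gata6 classes of the positive library and 2.05 (1.82 to 2.30), 8.41 (6.20 to 11.1) and 48.0 CPM (43.4 to 52.9) across those of the negative. The ratio of highest to lowest was 5.18 (4.46 to 6.01) and 23.4 (20 to 27.3), and the detected share went from 4.58% to 20.3% and from 2.33% to 35.5%. Between libraries Fgfr2 was 2.49 (2.16 to 2.87) times as high in the positive library at 0 Gata6 UMIs and 0.551 (0.470 to 0.646) times at 3 or more. Fgfr1 stood at 27.7, 22.1 and 13.0 CPM in the positive library (0.471, 0.392 to 0.561) and 23.8, 24.0 and 16.2 CPM in the negative (0.680, 0.568 to 0.808). The receptors therefore ran in opposite directions with Gata6 in both libraries.

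Both ligand and Fgfr2 were detected in 85 of 4402 thinned positive-library cells and 44 of 3824 negative-library cells, where the product of their separate shares gives 121.0 and 78.25 cells. Fgf4 with Fgfr1, by contrast, shared 490 and 384 cells, and the product gives 451.8 and 388.3. These counts describe cells of 1 library each.

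Spry2 stood at 120 (118 to 122), 112 (106 to 119) and 223 CPM (214 to 232) across the Gata6 classes of the positive library, a ratio of 1.86 (1.78 to 1.95). The negative library gave 83.0 (81.5 to 84.5), 119 (110 to 129) and 247 CPM (236 to 258), a ratio of 2.97 (2.84 to 3.12). It was detected in 80.4% and 82.3% of Gata6-rich cells. Spry4 stood at 39.8 against 36.5 CPM (1.09, 0.980 to 1.21) and 65.5 against 52.4 CPM (1.25, 1.14 to 1.36), Dusp6 at 0.768 and 0.916 times and Spred1 at 0.596 and 0.621 times the level without Gata6. Among positive-library cells with 0 Zscan4 UMIs Dusp6 was past the size rule, at 9.59 against 20.3 CPM (0.472, 0.352 to 0.620). Of the 4 inhibitors, Spry2 had the highest ratio in both libraries. Across single cells, Gata6 was the gene most like Spry2 in the negative library (r of 0.25) and the ninth in the positive (0.16), where Klf5 (0.24), Mkrn1 (0.23) and Spry4 (0.23) came first.

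Of the ETS factors, Etv5 stood at 60.1, 44.0 and 22.5 CPM in the positive library (0.374, 0.326 to 0.428) and 59.7, 53.1 and 30.8 CPM in the negative (0.516, 0.454 to 0.585). Etv4 stood at 22.7, 19.2 and 21.4 CPM (0.942, 0.815 to 1.08) and at 41.8, 39.1 and 30.6 CPM (0.732, 0.643 to 0.830). Etv5, which scarcely differed between libraries, thus differed more with Gata6 than Etv4 did.

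In the positive library 4 of 9 members were past the size rule, Fgfr2 as higher and Fgf4, Fgfr1 and Etv5 as lower, where 4.95% of 8217 genes were higher and 5.49% lower. For the negative library the count was 3 of 9, Fgfr2 and Spry2 as higher and Fgf4 as lower, where 5.98% of 7628 genes were higher and 3.59% lower. The median over the 9 members was a log2 ratio of -0.36 and -0.44, against -0.02 and 0.03 over all genes. The 12 primitive endoderm markers summed to 5176 against 410 CPM in the positive and 3856 against 133 CPM in the negative library, all 12 detected in every one of these classes; Gata6, which defines the classes, is 1 of the 12 and made up 668 against 5.33 and 681 against 2.85 CPM of these sums. The 7 mESC markers summed to 953 against 2428 and 1468 against 3238 CPM. Nanog stood at 37.7 against 458 and 28.5 against 202 CPM. The 8 feeder markers summed to 478 against 202 CPM and 350 against 206 CPM, with Col3a1, Dcn and Lum at 0 in the Gata6-rich class of both libraries and Postn at 0 in that of the negative. The 7 markers of primed pluripotency summed to 372 against 66.6 and 325 against 74.2 CPM, and the trophoblast markers to 140 against 90.4 and 72.6 against 58.7 CPM. The 2C-like markers summed to 170 against 561 CPM in the positive library, with Tdpoz1 at 0 in its Gata6-rich class, and to under 1 CPM in both negative-library classes. The part of these markers in the Gata6 ratios was not tested. In sums over a class, fewer cells of a type and less RNA per cell cannot be told apart.

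**Figure D3:**
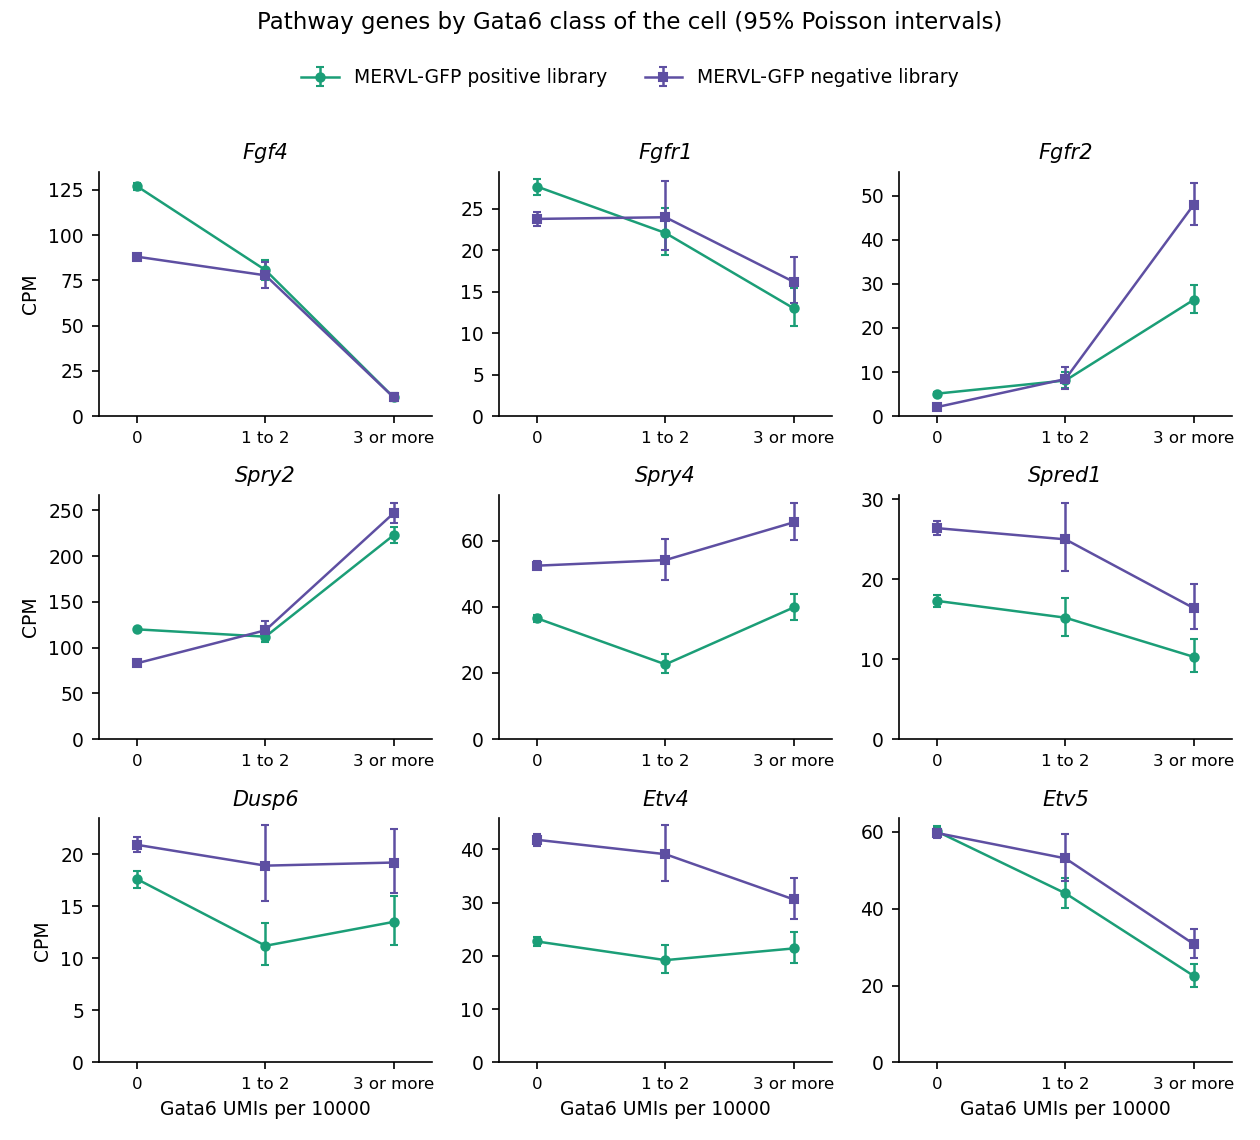
Level of each member by the Gata6 UMIs of the cell after thinning to 10000 UMIs, in the positive (green circles) and negative (purple squares) libraries; vertical axes are CPM, linear from 0, with exact 95% Poisson intervals. Fgf4 reaches 10.3 CPM in both libraries at 3 or more Gata6 UMIs, where Fgfr2 reaches 26.4 and 48.0 CPM and Spry2 223 and 247 CPM.

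The fourth comparison follows the members with the Zscan4 sum in the positive library. Nearly the whole pathway list of members was lower in the cells richest in Zscan4: ligand, Fgfr1, all 4 inhibitors and both ETS factors lay below the level of cells without Zscan4. Only Fgf4 and Etv4 reached 2-fold. Fgfr2 differed by less than its interval over all cells, but was higher with Zscan4 among cells without Gata6 UMIs.

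Fgf4 stood at 128 CPM (125 to 130) in the 1977 cells without Zscan4 UMIs, 122 in the 1243 cells with 1 to 2, 89.7 in the 690 with 3 to 9 and 54.2 CPM (49.9 to 58.8) in the 492 with 10 or more, a ratio of 0.425 (0.390 to 0.462). Etv4 stood at 26.8 (25.5 to 28.0), 22.5, 13.6 and 10.2 CPM (8.36 to 12.3), a ratio of 0.380 (0.311 to 0.461). Etv5 stood at 61.4, 57.2, 45.2 and 38.9 CPM, a ratio of 0.634 (0.572 to 0.701). Spry2 stood at 136, 136, 104 and 76.2 CPM (0.561, 0.522 to 0.602) and Spry4 at 41.2, 34.5, 25.9 and 22.9 CPM (0.557, 0.487 to 0.635). For Fgf4 and Etv4 each class lay below the one before it, although the intervals of the first pair of Fgf4 classes met at 125 CPM and those of the last pair of Etv4 classes overlapped.

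The ratios of Spred1 and Dusp6 were 0.570 (0.467 to 0.690) and 0.528 (0.429 to 0.643), and that of Fgfr1 was 0.572 (0.489 to 0.665). Fgfr2 stood at 7.09 and 6.84 CPM, a ratio of 0.966 (0.745 to 1.24). Among cells with 0 Gata6 UMIs it stood at 6.73 against 4.79 CPM, a ratio of 1.40 (1.05 to 1.85). Of the 8 members with enough counts 2 were past the size rule, both as lower, where 9.56% of 8422 genes were higher and 4.75% lower. The median over these 8 members was a log2 ratio of -0.82, against -0.12 over all genes tested.

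Depth and other markers moved with Zscan4, and the part of the markers in these ratios was not tested. Cells with 10 or more Zscan4 UMIs had a median of 20254.5 UMIs and 3.20% mitochondrial UMIs, against 33004 and 2.36% in cells without. The 14 measured 2C-like markers summed to 3605 against 102 CPM, of which the Zscan4 genes that define the class made up 2509 and 31.3 CPM, the mESC markers to 996 against 2702 CPM, and the endoderm markers to 645 against 908 CPM. Trophoblast markers stood at 57.3 against 111 CPM, primed markers at 62.2 against 102 CPM with T at 0 in the Zscan4-rich class, and feeder markers at 175 against 247 CPM with Dcn at 0 in both. Among cells of 20000 to 50000 UMIs the ratio of Fgf4 was 0.420 (0.377 to 0.467) and that of Etv4 0.329 (0.250 to 0.426). With Gata6 at 0 UMIs the ratios were 0.387 (0.353 to 0.422) and 0.358 (0.288 to 0.440), and Dusp6 was past the size rule too, at 0.474 (0.379 to 0.586).

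**Figure D4:**
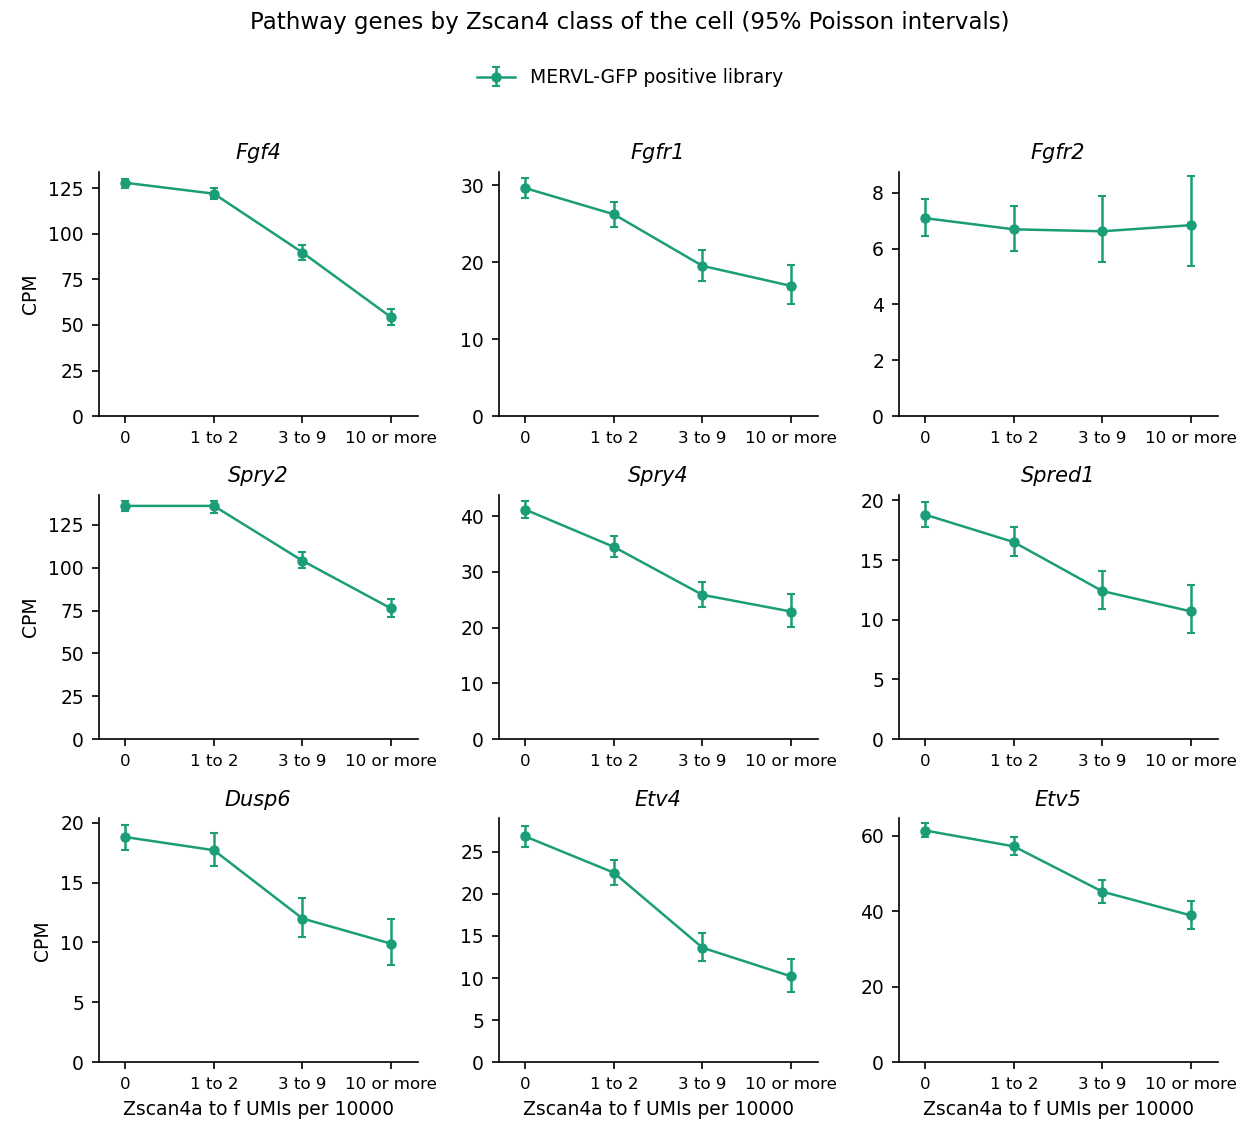
Level of each member in the positive library by the summed Zscan4a to Zscan4f UMIs of the cell after thinning to 10000 UMIs; vertical axes are CPM, linear from 0, with exact 95% Poisson intervals. Apart from Fgfr2, which stands at 6.84 CPM in the class of 10 or more, every member is lowest in the class of 10 or more, with Fgf4 at 54.2 and Etv4 at 10.2 CPM.

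Positive-library cells were then sorted by Zscan4 and Gata6 together, since some hold both. Among cells without Gata6 UMIs, those with 3 or more Zscan4 UMIs (1022 cells) against 0 (1665 cells) had Etv4 at 11.8 against 27.8 CPM (0.425, 0.375 to 0.481), Dusp6 at 11 against 20.3 CPM (0.541) and Fgf4 at 81.6 against 142 CPM (0.573, 0.546 to 0.601), while Fgfr2 stood at 6.28 against 4.79 CPM (1.31, 1.07 to 1.60). Etv4 alone of 8 members was past the size rule there, where 2.01% of 8258 genes were lower and 6.55% higher. Among cells with Gata6 UMIs (160 and 312 cells) Fgf4 stood at 48.1 against 45.3 CPM (1.06, 0.897 to 1.26) and Etv5 at 32.1 against 30.0 CPM (1.07, 0.867 to 1.32), so neither was lower with Zscan4 in those cells. Fgfr2 was lower there, at 9.34 against 19.8 CPM (0.472, 0.326 to 0.668), and was the 1 member of 9 past the size rule, where 2.18% of 8214 genes were lower and 6.01% higher; Gata6 itself stood at 180 against 443 CPM in the same cells. There the endoderm markers summed to 2605 against 3910 CPM, trophoblast markers to 227 against 133, primed markers to 141 against 288, feeder markers to 253 against 439 and mESC markers to 995 against 1318 CPM, and their part in these ratios was not tested. Among cells without Gata6 UMIs the same lists stood at 558 against 364, 56.3 against 107, 64.0 against 67.9, 183 against 212 and 1303 against 2953 CPM.

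Read the other way, Gata6-positive against Gata6-negative cells without Zscan4 had Fgf4 at 45.3 against 142 CPM (0.318, 0.289 to 0.349), Fgfr2 at 19.8 against 4.79 CPM (4.13, 3.43 to 4.98) and Etv5 at 30.0 against 67.1 CPM (0.447, 0.396 to 0.502). These 3 of 9 members were past the size rule, where 4.06% of 8095 genes were higher and 2.05% lower. In cells with 3 or more Zscan4 UMIs the same ratios were 0.590 (0.508 to 0.682), 1.49 (1.02 to 2.12) and 0.718 (0.596 to 0.859). None of the 8 members with enough counts was past the size rule there, where 1.64% of 8093 genes were higher and 0.420% lower. The ratios with Gata6 therefore lay nearer to 1 in Zscan4-rich cells for all 3 genes, and the difference between them was not tested. The contrast in Gata6 itself was smaller there too, at 180 against 6.13 CPM, where cells without Zscan4 had 443 against 5.25 CPM. Endoderm markers of the Gata6-positive cells summed to 2605 CPM in Zscan4-rich cells and 3910 CPM in cells without Zscan4.

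Members resembled one another only weakly from cell to cell. The highest r between members was that of Spry2 with Spry4, 0.23 in the positive and 0.15 in the negative library; they were detected together in 571 and 801 cells, where the product of shares gives 444.4 and 696.2. Dusp6 with Spry4 had r of 0.10 in both libraries, and 156 and 312 cells held both against products of 100.1 and 248.9. Etv4 with Etv5 had r of 0.04 in both, and Fgf4 with Fgfr1 0.05 and -0.02. Mkrn1, which encodes a ubiquitin ligase, was the gene most like Spry4 (0.23 and 0.20) and Dusp6 (0.12 and 0.10) in both libraries and most like Etv4 in the negative (0.12). For Etv4 in the positive library it was Utf1 (0.16), a chromatin-associated factor of mESC, and for Etv5 it was Tdgf1 (0.24), a Nodal co-receptor, in the positive and Tet1 (0.10) in the negative. Fgfr1 (Malat1, 0.12, and mt-Co1, 0.08) and Spred1 (Arid5b, 0.10, and Ctbp2, 0.09) had no gene above 0.12. All these cells share a library and a fixed depth, and r this low in sparse counts is no finding.

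The rest of the pathway was read from 60 further genes, of which 59 were among the features. Between libraries 34 had enough counts and 3 were past the size rule, all higher in the positive library, where 7.01% of all genes tested were higher and 0.995% lower. Fgf1, an FGF that binds all FGF receptors, stood at 55.6 against 2.32 CPM (24.0, 21.6 to 26.7). Dusp4, a nuclear ERK phosphatase, stood at 38 against 16.7 CPM (2.28, 2.18 to 2.39), and Sos2, a RAS activator, at 13.3 against 4.65 CPM (2.86, 2.62 to 3.12). Short of the size rule, the ERK phosphatase Dusp9 stood at 116 against 61.0 CPM (1.90) and the immediate early gene Ier2 at 68.6 against 135 CPM (0.508).

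With Gata6, 39 of the 59 had enough counts in the positive and 36 in the negative library; 7 were past the size rule as higher in each, with 2 and 3 as lower, where 4.95% and 5.98% of all genes tested were higher and 5.49% and 3.59% lower. Klb, a co-receptor for endocrine FGFs, stood at 24.2 against 0.993 CPM (24.4) and 17.1 against 0.365 CPM (46.9). Sdc4, a heparan sulfate proteoglycan that binds FGFs, stood at 480 against 93.1 CPM (5.16) and 699 against 60.2 CPM (11.6). Dusp4 stood at 200 against 22.8 CPM (8.77) and 140 against 9.29 CPM (15.1), and Phlda1 at 102 against 19.1 CPM (5.32) and 130 against 9.41 CPM (13.9). The ligands Fgf10 (11.2 and 32.6 times) and Fgf3 (5.10 and 15.8 times) were higher and Fgf17 (0.0519 and 0.236 times) was lower. The Sprouty Spry1 was past the size rule in the negative library, at 25.4 against 6.76 CPM (3.76). So were 2 immediate early targets of ERK, as lower, Egr1 at 9.35 against 20.5 CPM (0.455) and Ier2 at 62.5 against 139 CPM (0.450). The ERK-activated kinase gene Rps6ka1 was past it as higher in the positive library, at 118 against 54.3 CPM (2.17), and the inhibitor Il17rd as lower, with a ratio of 0.442 (0.320 to 0.598).

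With Nanog, 1 of 34 pathway genes was past the size rule as higher in the positive library, Fgf17 at 13.3 against 4.32 CPM (3.07), and 5 as lower; in the negative library 0 were higher and 3 lower. Of all genes tested 1.45% were higher and 4.87% lower in the positive library, and 0.149% and 0.854% in the negative. Dusp4 (0.193 and 0.156 times), Sdc4 (0.301 and 0.285) and Phlda1 (0.335 and 0.271) were lower in both libraries. Fgf1 (111 down to 25.8 CPM, 0.232) and Fos (0.453) were lower in the positive library only by this rule, and the difference between libraries was not tested. In the negative library Fgf1 stood at 2.62 and 2.54 CPM, below the 10 CPM minimum, so it could not be past the rule there. Dusp4, Sdc4 and Phlda1 are among the genes that were higher with Gata6.

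With Zscan4, 38 pathway genes had enough counts; 4 were past the size rule as higher and 3 as lower, where 9.56% of all genes tested were higher and 4.75% lower. Fgf1 stood at 21.4, 50.4, 126 and 150 CPM across the Zscan4 classes (7.01, 6.53 to 7.54), the opposite course to Fgf4. Dusp5, a nuclear ERK phosphatase, stood at 19.9 against 6.07 CPM (3.28), Grb2, the adaptor that links receptors to SOS, at 232 against 107 CPM (2.16) and Fos at 18.2 against 8.47 CPM (2.15). Myc (0.372 times), Fgf17 (0.359) and Etv1, the third ETS factor of the Etv4 and Etv5 group (0.461), were lower. All 3 of these ETS factors thus lay below the level of Zscan4-negative cells, 2 of them past the size rule.

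**Figure D5:**
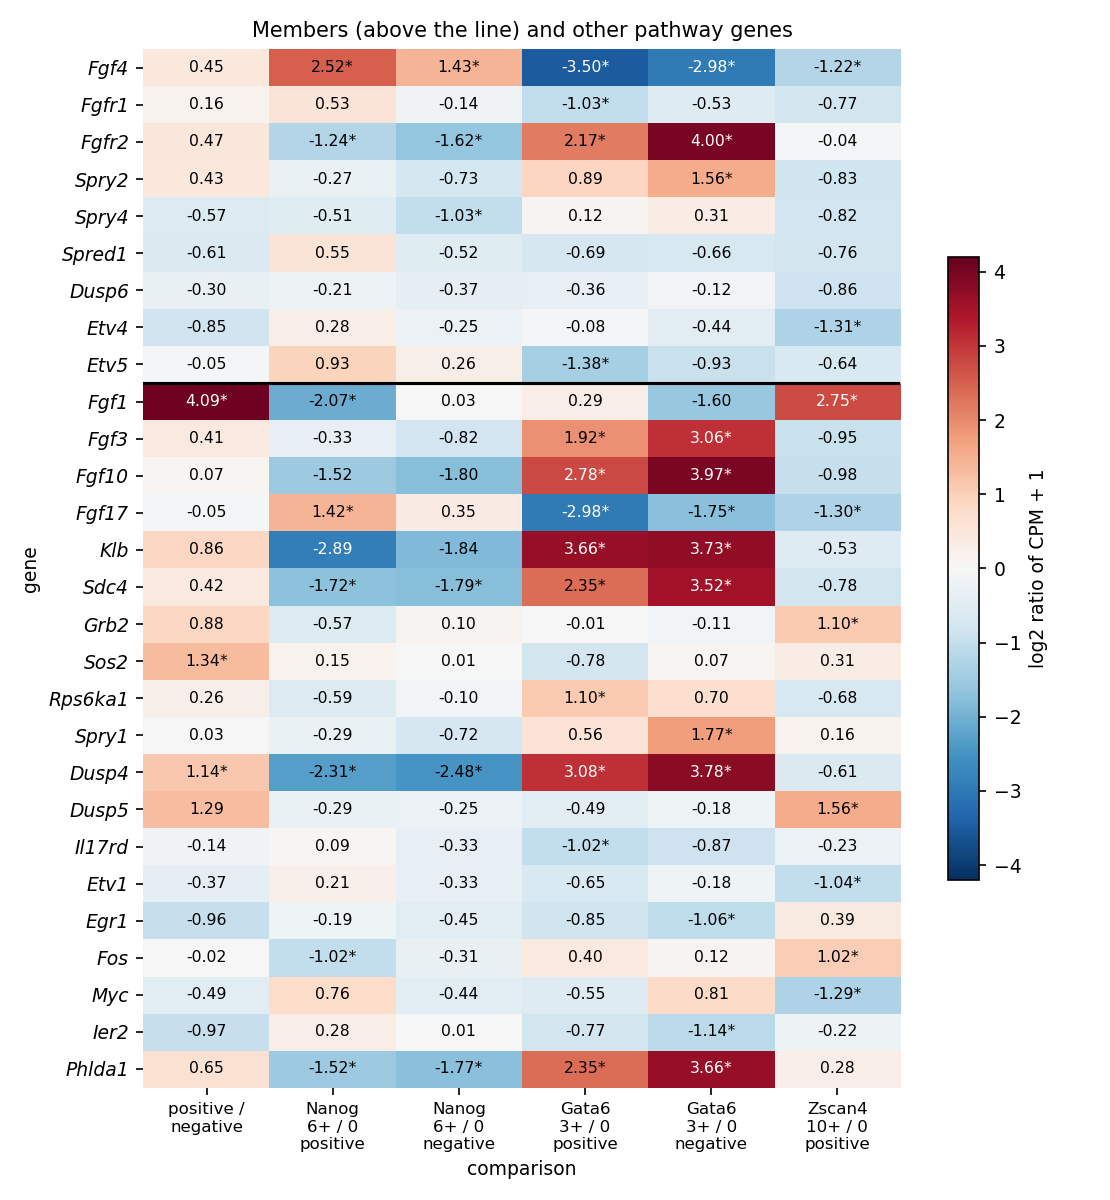
Log2 ratio of CPM + 1 for the 9 members (above the line) and the 19 other pathway genes past the size rule in at least 1 of 6 comparisons; columns are the library contrast and the highest against the lowest Nanog, Gata6 or Zscan4 class within a library, red is higher and blue lower in the first-named group, and asterisks mark genes past the size rule. Fgf4 carries opposite signs with Nanog (2.52 and 1.43) and Gata6 (-3.50 and -2.98), and Fgfr2 the reverse (-1.24 and -1.62, then 2.17 and 4.0).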

How the data were processed

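Single-cell RNA was measured in 2 libraries of mouse embryonic stem cells, 1 per reporter group. The values deposited by the authors are whole-number counts per gene and cell barcode, read here as UMIs because the barcodes have 16 bases. Per the submitters' processing notes, the build was mm10 and FastQC 0.11.2, Trim Galore 0.6.4 and STAR 2.7.6a were used; counting, cell calling and gene annotation are not given in the sources used here. The labels' extraction text describes a bulk RNA kit and not a single-cell capture.

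A cell was kept if it held 1000 UMIs or more over 500 genes or more, of which no more than 20% were mitochondrial. Work was done in Python 3.11.15 with pandas 2.3.3, numpy 2.4.6, matplotlib 3.10.9 and scipy 1.17.1. The kept cells held 138303336 UMIs in the positive and 156406894 in the negative library. UMIs were summed per library or class and scaled to CPM, and the size rule used ratios of CPM + 1 (a pseudocount of 1), with exact Poisson, conditional ratio and Clopper-Pearson intervals at 95%. PCR and capture error are not in these intervals. Doublets were not called. An alternative without cells above 2 times the median UMIs stands in for the library contrast alone, and the class contrasts and joint counts had none. Alternatives were TMM scaling of the library contrast (R 4.3.3, edgeR 4.0.16) and median-of-ratios scaling (in Python). Others were other filters, thinning to 5000 UMIs, other class limits and other size limits. On data simulated from the negative library over 55415 genes, 200 of 200 genes changed 3-fold were recovered with 0 false calls, and 95.3% of 1000 intervals covered the true ratio. The simulation held counting noise alone, at the depth of whole libraries and for genes of at least 10 CPM. It therefore checks the calculation and says nothing of spread among cells or of the smaller class sums.

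The members and gene lists were chosen with earlier results of these data known. Named beside the 9 members are the class genes, pathway genes past the size rule (the 6 largest where more passed), the 2 highest of each role and the 3 genes most like each member, of which some are printed; some of the pathway genes this rule names are not reported here.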

Additional observations from a re-analysis of the deposited data

Results flagged for a closer look

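The contrast of cells with 6 or more Nanog UMIs against cells with 0 gave opposite directions in the 2 libraries for 3 members, and the difference between libraries was not tested. The log2 ratio of the receptor Fgfr1 was 0.53 in the positive and -0.14 in the negative library, where the interval of its ratio, 0.771 to 1.06, includes 1 and the log2 ratio was 0.08 for 1 or more Nanog UMIs against 0. That of the inhibitor Spred1 was 0.55 and -0.52, and that of the transcription factor Etv4 was 0.28 and -0.25. Among positive-library cells with neither Gata6 nor Zscan4 UMIs the ratios were 0.916 (0.784 to 1.07) for Fgfr1, 1.04 (0.843 to 1.28) for Spred1 and 0.922 (0.773 to 1.10) for Etv4, each with an interval that includes 1. With only Gata6 at 0 UMIs, an alternative chosen after seeing the data, they were 1.2 (1.07 to 1.35), 1.29 (1.11 to 1.5) and 1.27 (1.12 to 1.46). Among positive-library cells of 20000 to 50000 UMIs they were 1.51 (1.35 to 1.69), 1.41 (1.22 to 1.63) and 1.17 (1.04 to 1.32). With classes from 5000 UMIs the log2 ratio of Etv4 was -0.02.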

How the results depend on the processing

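No paired analysis was possible because there is only 1 library of each kind, and for the same reason no library could be left out. Counts of all genes past the size rule moved with its limits. At a ratio of 1.5, of 4, with a minimum of 1 CPM and with no minimum, the library contrast gave 1811, 242, 1357 and 1357 genes (644 as reported). The positive-library contrasts gave 1110, 114, 829 and 841 by Nanog (515), 1926, 210, 1659 and 1684 by Gata6 (858) and 2791, 374, 1969 and 2100 by Zscan4 (1205). The negative-library contrasts gave 217, 27, 156 and 163 by Nanog (74) and 1602, 185, 1358 and 1433 by Gata6 (730). Members past the rule between libraries went from 0 to 1 under TMM, under median-of-ratios scaling and among cells with 1 to 2 Gata6 UMIs. In that order all genes gave 378 higher and 260 lower, 380 and 258, and 718 and 181 (564 and 80 as reported). The member count went to 2 at a ratio of 1.5 and among cells with 0 Nanog UMIs (all genes: 743 higher and 200 lower). Both cell subsets were chosen after seeing the data. In the positive library the Nanog count of 2 became 1 with classes from 5000 UMIs, at 0 Gata6 and Zscan4 UMIs, at 0 Gata6 UMIs (chosen after seeing the data) and at a ratio of 4. For the classes and subsets, in that order, all genes gave 66 higher and 343 lower, 36 and 230, and 58 and 350 (118 and 397 as reported). At a ratio of 1.5 Etv5 (log2 ratio 0.93) passed as well, as did Spry2 (-0.73) with Nanog in the negative library. At a ratio of 4 Spry2 (1.56) no longer passed with Gata6 in the negative library. The Gata6 count of 4 became 2 for 1 or more against 0 and at a ratio of 4, 3 under median-of-ratios scaling, 5 with classes from 5000 UMIs and at 0 Zscan4 UMIs, and 6 at a ratio of 1.5. The Zscan4 count of 2 became 4 with classes from 5000 UMIs, 0 for 1 or more against 0, 8 at a ratio of 1.5 and 0 at a ratio of 4. All genes moved too: 912 higher and 624 lower with Zscan4 classes from 5000 UMIs and 275 and 2 for 1 or more against 0 (805 and 400 as reported), and 238 and 91 for 1 or more Gata6 UMIs (407 and 451). In the negative library the Nanog count of 3 became 1 with classes from 5000 UMIs, for 1 or more against 0 and in both subsets without Gata6 (all genes: 85 higher and 76 lower, 1 and 55, and 12 and 8 in each subset; 11 and 63 as reported), with Spry4 at a log2 ratio of -0.99, -0.35, -0.99 and -0.99 (-1.03 as reported), and 0 at a ratio of 4; the Gata6 count of 3 became 5 at a ratio of 1.5. Fgfr2 reversed with Nanog in the negative library, from a log2 ratio of -1.62 to 0.28 at 0 Gata6 and Zscan4 UMIs and 0.27 at 0 Gata6 UMIs; the cause was not tested. The share of cells with any member moved with depth, to 77.6% and 84.2% at 5000 UMIs and 97.7% and 99.7% without thinning. Of the member log2 ratios under alternatives, 309 stayed within their counting interval, 193 moved outside it and 2, the Fgfr2 values above, reversed from past the size rule. Ratios short of the rule also changed sign in places, among them Fgf4 between libraries at 0 Nanog UMIs (0.45 to -0.79), Fgfr2 between libraries at 3 or more Gata6 UMIs (0.47 to -0.84) and Fgfr1 under both scalings (0.16 to -0.12). Depth limits Fgfr2, with 25 UMIs in the highest Nanog class of the negative library.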

Other observations

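Some pathway genes that are not members kept the direction of their Zscan4 ratio whether or not the positive-library cell held Gata6 UMIs. Fgf1 stood at 129 against 18.3 CPM (7.03, 6.56 to 7.55) in cells with 3 or more Zscan4 UMIs against 0 at 0 Gata6 UMIs, and at 174 against 38.4 CPM (4.52, 3.99 to 5.13) at 1 or more. Dusp5 stood at 14.3 against 6.17 CPM (2.31) and 13.2 against 5.49 CPM (2.40). Myc, a growth-promoting transcription factor, stood at 6.17 against 16.9 CPM (0.364) and 2.87 against 10.3 CPM (0.279). These genes were chosen after their values were seen.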
